A study of Mus musculus with 167 samples.

Results

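VUX tumours are the asbestos-induced mesotheliomas of 1 cross of a mouse series, and they were set against the tumours of 16 other crosses. All samples labelled with the strain VUXxMexTAg were taken, which gave 4 tumours from 4 mice, 1 each, of 167 tumours from 119 mice of 35 strains in all. Of these 4 mice, VUX-D1, VUX-E2 and VUX2-B1 were above and VUX2-G1 was below the median survival of the study. The comparison held 101 tumours from 71 mice, with 3 to 7 mice each of Boon, CC035, CC040, CC044, CC046, CC053, CC059, CC060, CIS, KAV, LAT, LOX, MEE, Rogan, TAS and YID, of which 49 mice were above and 22 below that median. A further 6 tumours, whose strain was in doubt from earlier work on these data, were left out, and 56 tumours from 44 mice of other strains were not used.

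Every mouse of both groups was the offspring of a male of a Collaborative Cross (CC) strain and a MexTAg female, and received 2 injections of 3 mg of crocidolite asbestos into the peritoneal cavity a month apart, with no further treatment, so both groups carry the transgene and the exposure. CC strains are inbred lines whose genomes mix those of several founder strains, so crosses of different CC strains differ at many loci. MexTAg mice express the SV40 large T antigen, an oncoprotein that binds p53 and the retinoblastoma protein, from the mesothelin promoter, which is active in mesothelial cells. Whole tumours were homogenised, so tumour cells, stroma, blood vessels and infiltrating leukocytes were measured together, and a change in the number of cells of a type cannot be told apart from a change in RNA per cell. The mice of a group are separate animals.

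Mesothelioma arises in the lining of the body cavities, and it ranges from epithelioid tumours that keep mesothelial proteins such as mesothelin to sarcomatoid tumours rich in matrix. Deletion of the Cdkn2a locus, which encodes cell cycle inhibitors, is frequent in the human disease. The transcription factor Jun, a partner in the AP-1 dimer, responds to growth signals and stress, including asbestos fibres.

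Library totals were 21663541, 21770138, 18490424 and 15088818 estimated counts in VUX mice D1, E2, B1 and G1, and 11138491 to 35399287 over all libraries compared. Levels are given as CPM, the usual share of a gene in the scaled total count of a mouse. They were tested with edgeR's quasi-likelihood F-test over 19628 genes, two-sided with Benjamini-Hochberg adjustment, and a fold change is VUX over the other strains on the log2 scale, ± SE. The titles of the 4 libraries start with VUX for D1 and E2, which have low library numbers (9 and 35), and with VUX2 for B1 and G1, which have high ones. Prefix and library number split the 4 mice in the same way, so they cannot be told apart. Low numbers recur between libraries, as 9 does in CC044-H2 and 35 in CC053-A1, so the lower-numbered libraries need not be one series. Marker genes of other tissues took over 1% of counts in 14 of the 101 other libraries and at most 0.282% in a VUX library.

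The strain label was checked over 300 genes that separate the other 16 strains, chosen without the VUX mice. The centred profile of each VUX mouse correlated best with the mean of the other 3 VUX mice, at r = 0.57, 0.75, 0.77 and 0.77 for VUX mice D1, E2, B1 and G1 (over 300 genes of one library each, a description). The best other strain, TAS, reached 0.24 to 0.28. The own strain was the nearest for 70 of the 71 other mice, with a median r of 0.80, but the genes were chosen on those mice, so these values are no yardstick for the VUX mice. The pair VUX2-B1 and VUX2-G1 stood closest at 0.83, and VUX-D1 stood furthest from them, at 0.46 with each.

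Cwc22 (ENSMUSG00000027014), a splicing factor that helps to place the exon junction complex and whose copy number varies among mouse strains, was examined because its level differs widely between the strains. It had 23.3, 27.1, 31.9 and 36.2 CPM in VUX mice D1, E2, B1 and G1, against 23.1, 38.2 and 804 CPM (lowest, median and highest) in the 71 other mice. All 4 VUX mice lay under the median of the others but within their range. The mean of the VUX mice was 4.87 ± 0.28 (log2 CPM, SD, n = 4), the last of 17 strain means, and the next, CIS at 4.93 ± 0.40 (n = 3) and Rogan at 5.01 ± 0.27 (n = 4), lay within the spread of VUX. The high strains were TAS at 8.83 ± 0.60 (n = 6) and LOX at 8.21 ± 0.53 (n = 7). The fold change of -1.79 ± 0.95 did not pass (edgeR, adjusted p = 0.388), and it was -0.73 ± 0.21 with an adjusted p of 0.0259 when each strain was a group of its own.

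In all, 250 of 19628 genes (1.27%) differed between VUX and the other strains at an adjusted p of 0.05 (edgeR), 232 of them higher (1.18%) and 18 lower (0.0917%) in VUX. The balance of directions turned with the method, since DESeq2 gave 172 higher and 282 lower genes, and edgeR with each strain as a group of its own gave 774 higher and 110 lower. Of the 232 higher genes, 88 (37.9%) stood above the median of the other mice in all 4 VUX mice, 79 in 3, 56 in 2 and 9 in 1. All 4 VUX mice stood above that median for 8.09% of all tested genes. Of the 18 lower genes, all 18 stood at or below that median in all 4 VUX mice, as did 11.7% of all tested genes. A single very high mouse can raise a mean over 4 mice many-fold, but a single mouse at 0 cannot lower it much, so the test itself favours lower genes shared by the mice and these counts are not compared between directions. When the CPM of the 4 VUX mice were added up gene by gene, the highest mouse contributed 66.7% at the median of the higher genes and 39.9% at the median of all tested genes. Its contribution was over 90% for 55 of the 232 genes (23.7%) and for 4.71% of all tested genes. The mouse that was highest was VUX2-G1 for 82 of the 232 genes, VUX2-B1 for 52, VUX-D1 for 51 and VUX-E2 for 47. Over all 19628 tested genes it was VUX2-G1 for 4056, VUX2-B1 for 5165, VUX-D1 for 5933 and VUX-E2 for 4474. Without VUX2-G1, 112 genes were higher, 105 of them among the 232, and 2 were lower. Without VUX2-B1 4 genes were lower, and without VUX-D1 9. Within the lower-numbered libraries (2 VUX mice and 60 others) 129 genes were higher and 7 lower, of which 81 and 0 were among the calls over all mice. Within the higher-numbered ones (2 VUX mice and 11 others) 32 genes were higher, 23 of them among the 232, and 0 were lower (edgeR, with 486 lower genes below an unadjusted p of 0.05).

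**Figure D1:**
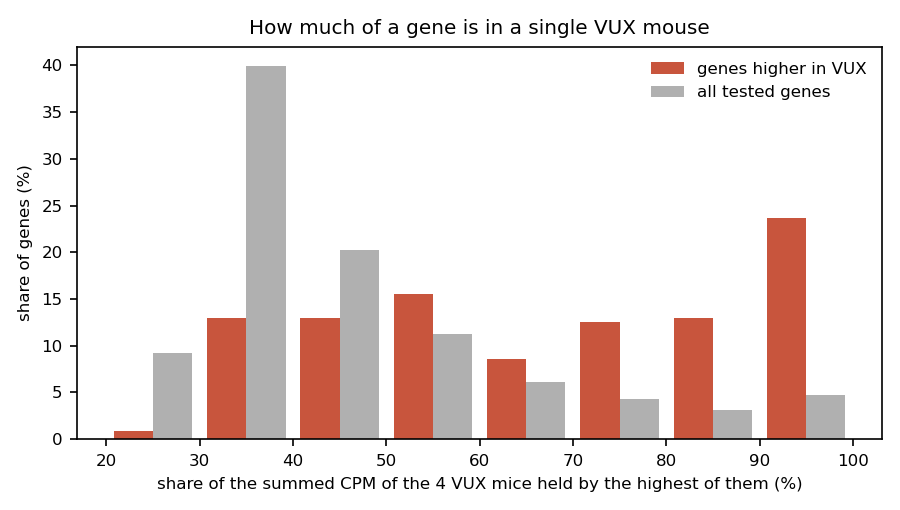
For each gene, the share of the summed CPM of the 4 VUX mice that the highest of them held (horizontal axis, %) against the share of genes (vertical axis, %), for the 232 genes higher in VUX (red) and all 19628 tested genes (grey). The bar from 90% to 100% held 23.7% of the higher genes and 4.71% of all genes.

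Genes that met the rule for naming passed the test, changed by at least 1 on the log2 scale, reached a mean of 5 CPM in the higher group and had VUX first or last of the 17 strain means. VUX was first for 5.3% and last for 6.38% of all tested genes, and 108 higher and 7 lower genes met the whole rule. The 12 higher genes of lowest p and the 7 lower genes are described here.

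Of the 12 higher genes, 4 were high in a pair of VUX mice and passed whichever VUX mouse was left out. Cyp2j6, a cytochrome P450 of a subfamily that epoxidises arachidonic acid, had 9.79, 14.7, 617 and 1730.4 CPM in VUX mice D1, E2, B1 and G1, against 0.647, 7.14 and 103.2 CPM (lowest, median and highest) in the 71 other mice. B1 and G1 stood above every other mouse, and D1 and E2 lay among them. The fold change was 5.59 ± 0.46 (edgeR, adjusted p = 3.67e-15). Ret, the receptor tyrosine kinase for ligands of the GDNF family, had 1.04, 470.3, 7.75 and 349 CPM in VUX mice D1, E2, B1 and G1, against 0.143, 3.34 and 103.7 CPM (lowest, median and highest) in the 71 other mice. Here E2 and G1 stood above every other mouse, B1 lay above their median and D1 below it. The fold change was 4.71 ± 0.60 (adjusted p = 4.13e-08). Rxfp3, a receptor of relaxin-3, had 0.563, 0.102, 76.6 and 67.6 CPM in VUX mice D1, E2, B1 and G1, against 0, 0.593 and 11.97 CPM (lowest, median and highest) in the 71 other mice, so that B1 and G1 were high and D1 and E2 were not (4.82 ± 0.66, adjusted p = 2.22e-07). Tmem132d, a membrane protein best known from the brain, had 40.5, 66.4, 0.337 and 0.358 CPM in VUX mice D1, E2, B1 and G1, against 0, 0.471 and 9.67 CPM (lowest, median and highest) in the 71 other mice. It was high in D1 and E2 and below the median of the others in B1 and G1 (5.02 ± 0.52, adjusted p = 3.85e-11). Within the lower-numbered libraries the values were -0.082 for Cyp2j6 and -1.93 for Rxfp3, and within the higher-numbered ones that of Tmem132d was -1.74, and these 3 did not pass there.

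The other 8 of the 12 genes each rested on 1 VUX mouse and did not pass without it. VUX2-B1 carried 2 of them. Dner, a Notch ligand of neurons, had 0.216, 0, 225 and 5.08 CPM in VUX mice D1, E2, B1 and G1, against 0, 0.219 and 8.02 CPM (lowest, median and highest) in the 71 other mice. B1 alone stood far above every other mouse, and the fold change of 6.53 ± 0.61 (edgeR, adjusted p = 7.82e-13) was 1.46 without B1 (adjusted p = 0.568). Fam135b had 0.866, 0.713, 106.3 and 0.215 CPM in VUX mice D1, E2, B1 and G1, against 0.0892, 0.611 and 7.20 CPM (lowest, median and highest) in the 71 other mice, and its fold change of 4.74 ± 0.51 was -0.72 without B1 (adjusted p = 0.750).

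VUX-E2 carried 3 more. Nat8f3 and Nat8f6 belong to a cluster of N-acetyltransferase genes on chromosome 6. Nat8f3 had 1.17, 93.05, 1.68 and 1.79 CPM in VUX mice D1, E2, B1 and G1, against 0, 0.613 and 8.40 CPM (lowest, median and highest) in the 71 other mice, and Nat8f6 had 0.476, 26.8, 0.449 and 0.215 CPM, against 0, 0.122 and 0.979 CPM. Both were above every other mouse in E2 and within the range of the others in the other 3 VUX mice, and their fold changes of 4.53 ± 0.56 and 5.29 ± 0.59 were 0.55 and 1.11 without E2. A run of neighbours passed together there, namely Nat8f7, the pseudogene Alms1-ps1 and Nat8f3 (chr6:85706727-85765754). Nat8f7 and Alms1-ps1 stood at 1.96 and 0.04 without E2, and at 4.93 ± 0.70 and 3.00 ± 0.61 with it. Adamts19, a secreted metalloprotease with thrombospondin repeats, had 0.606, 62.4, 0.561 and 2.51 CPM in VUX mice D1, E2, B1 and G1, against 0, 0.272 and 12.2 CPM (lowest, median and highest) in the 71 other mice. Its fold change of 4.52 ± 0.63 was 0.76 without E2 (edgeR, adjusted p = 0.745).

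VUX-D1 carried the imprinted gene Zdbf2 and the WD repeat gene Wdr17, and VUX2-G1 carried Guca1b, which activates the guanylate cyclase of photoreceptors. Zdbf2 had 32.5, 0.407, 4.44 and 0.143 CPM in VUX mice D1, E2, B1 and G1, against 0, 0.133 and 2.37 CPM (lowest, median and highest) in the 71 other mice, high in D1 and, to a lesser extent, in B1. Its fold change of 4.96 ± 0.58 was 2.44 without D1 (edgeR, adjusted p = 0.162). Wdr17 had 30.4, 0.305, 0.0561 and 0.0716 CPM in VUX mice D1, E2, B1 and G1, against 0, 0.206 and 4.15 CPM (lowest, median and highest) in the 71 other mice, and 4.32 ± 0.57 turned to -1.33 without D1. Guca1b had 0.779, 12.4, 12.7 and 378 CPM in VUX mice D1, E2, B1 and G1, against 0.0742, 0.782 and 46.5 CPM (lowest, median and highest) in the 71 other mice. E2 and B1 also stood above the median of the others, and 5.44 ± 0.64 was 1.90 without G1 (adjusted p = 0.560).

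**Figure D2:**
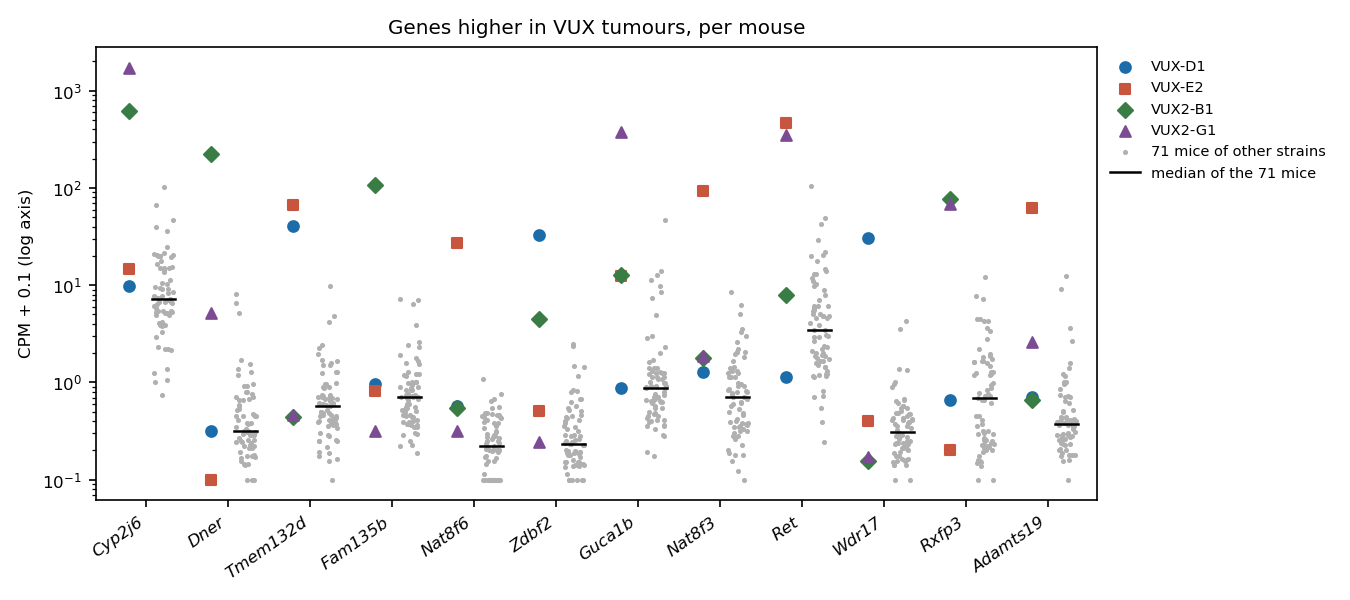
CPM plus 0.1 (vertical log axis) of the 12 named genes higher in VUX, with the 4 VUX mice as coloured symbols and, to their right, the 71 mice of other strains as grey dots with their median as a black line. Which VUX mouse is high differs from gene to gene, as with Dner at 225 CPM in VUX2-B1 and Ret at 470.3 CPM in VUX-E2.

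A set of neighbouring genes on chromosome 4, around Jun, was high in 3 of the 4 VUX mice, and its upstream sequences are shown for the genes at its centre and for Cyp2j6, the named higher gene of lowest p. The 250 bases before the transcript start are from RefSeq (GRCm38.p6), on the minus strand, 5′ to 3′, with matches to 5 motifs in capitals. These are the AP-1 motif TGANTCA, its variant TGACATCA, through which Jun is known to act on its own promoter, the TATA box TATAAA, the CCAAT box, and the GC box GGGCGG. All were searched on both strands, so that a match on the other strand reads CCGCCC for the GC box and ATTGG for the CCAAT box.
Jun, chr4:95052223-95052472: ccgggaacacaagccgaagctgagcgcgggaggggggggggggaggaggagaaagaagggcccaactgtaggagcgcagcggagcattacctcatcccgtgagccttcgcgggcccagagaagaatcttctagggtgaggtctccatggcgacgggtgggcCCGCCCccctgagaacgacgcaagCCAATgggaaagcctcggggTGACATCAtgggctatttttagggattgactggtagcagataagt
Mysm1, chr4:94979101-94979350: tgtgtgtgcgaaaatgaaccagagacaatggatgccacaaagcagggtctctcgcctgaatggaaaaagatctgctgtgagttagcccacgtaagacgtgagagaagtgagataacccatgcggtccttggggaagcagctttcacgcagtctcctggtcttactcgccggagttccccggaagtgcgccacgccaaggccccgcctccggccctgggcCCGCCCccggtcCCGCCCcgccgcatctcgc
Cyp2j6, chr4:96553652-96553901: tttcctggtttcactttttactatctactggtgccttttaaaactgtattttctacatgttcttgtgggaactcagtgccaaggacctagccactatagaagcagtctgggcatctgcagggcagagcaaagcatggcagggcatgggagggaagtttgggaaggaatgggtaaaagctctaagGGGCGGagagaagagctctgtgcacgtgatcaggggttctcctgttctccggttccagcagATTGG
Jun held TGACATCA, a CCAAT box and a GC box once each, beginning at -45, -65 and -89 relative to the start. Mysm1 held the GC box 2 times, Cyp2j6 held a CCAAT box and a GC box once each, and no matches overlapped. Of 32851 RefSeq promoters of 300 bases, 3.62% held TGACATCA, 37.4% the CCAAT box, 35.7% the GC box, 13.6% the TATA box and 7.81% the AP-1 motif, so a match describes the sequence and shows no binding.

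Jun (ENSMUSG00000052684, chr4:95049034-95052222, GRCm38) had 199.6, 1094, 2075 and 8526 CPM in VUX mice D1, E2, B1 and G1, against 27.1, 180.2 and 3649 CPM (lowest, median and highest) in the 71 other mice. D1 lay near the median of the others, E2 and B1 lay high in their range and G1 above all of them. The fold change was 3.31 ± 0.54 (edgeR, adjusted p = 1.95e-05), and without G1 it was 1.90 and did not pass (adjusted p = 0.348). The VUX mean of 10.45 ± 2.25 (log2 CPM, SD, n = 4) was the first of the 17 strain means. Mysm1 (ENSMUSG00000062627, chr4:94942040-94979100), a histone H2A deubiquitinase and the gene beside Jun, had 87.1, 422, 1238 and 919.6 CPM in VUX mice D1, E2, B1 and G1, against 20.03, 41.7 and 1329 CPM (lowest, median and highest) in the 71 other mice. All 4 VUX mice stood above the median of the others and none above their highest mouse, TAS-E3. Its fold change was 2.85 ± 0.59 (adjusted p = 0.00181), and without B1 it was 2.36 (adjusted p = 0.0960).

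The genes beyond this pair differed between the mice. Plaa, a ubiquitin-binding protein, had 208, 1146, 3625 and 97.4 CPM in VUX mice D1, E2, B1 and G1, against 46.1, 108.3 and 2785 CPM (lowest, median and highest) in the 71 other mice, so E2 and B1 were high and G1 was not. Ift74, a subunit of the intraflagellar transport complex, followed with 34.1, 232, 1158 and 32.8 CPM in VUX mice D1, E2, B1 and G1, against 7.72, 25.5 and 977 CPM (lowest, median and highest) in the 71 other mice. Both passed (2.66 ± 0.57 and 2.77 ± 0.65) and without B1 stood at 1.30 and 0.93 and did not pass. Tek, the angiopoietin receptor of endothelial cells, lies between Ift74 and Mysm1 and had 2.94, 339, 14.5 and 21.7 CPM in VUX mice D1, E2, B1 and G1, against 0.688, 9.67 and 42.1 CPM (lowest, median and highest) in the 71 other mice. It was high in E2 alone, and its fold change of 2.95 ± 0.47 was 0.08 without E2. The summed level of 14 endothelial genes was 652 CPM in E2, which ranked 32nd of 75 mice. Tek is itself one of the 14 and gave 339 CPM of that sum, so the rank does not describe the other endothelial genes.

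On the other side of Jun, G1 was high over a long stretch. Jak1, the kinase of interferon and interleukin receptors, had 332, 332, 160.02 and 3824 CPM in VUX mice D1, E2, B1 and G1, against 114.2, 254 and 3958 CPM (lowest, median and highest) in the 71 other mice. G1 alone of the VUX mice stood apart, beside KAV-D4, the highest of the others. The fold change of 1.88 ± 0.41 (edgeR, adjusted p = 0.00330) turned to -0.19 without G1. Leprot, Tm2d1 and the run Cachd1, Raver2, Jak1 and Ak4 (chr4:100776675-101466995) also passed. Without G1, Leprot, Tm2d1, Cachd1 and Raver2 stood at 0.28, 0.20, 0.31 and -0.51, and none passed. Ak4, a mitochondrial adenylate kinase, had 184, 40.1, 11.7 and 110.9 CPM in VUX mice D1, E2, B1 and G1, against 2.37, 13.3 and 142.7 CPM (lowest, median and highest) in the 71 other mice, with D1 the highest of the 4, and passed at 2.15 ± 0.50 but not without D1 (1.47, adjusted p = 0.372) or without G1 (2.02, adjusted p = 0.0903). Nfia, a transcription factor, had 257, 103.1, 58.6 and 249.9 CPM in VUX mice D1, E2, B1 and G1, against 11.1, 45.1 and 287 CPM (lowest, median and highest) in the 71 other mice. D1 and G1 were the high ones, and its fold change of 1.53 ± 0.40 did not pass without D1 (1.24) or without G1 (1.29).

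Cyp2j6 lies in the same stretch, in the run Cyp2j13, Cyp2j6 and Cyp2j9 (chr4:96027534-96591578). Cyp2j9 had 0.346, 1.48, 14.99 and 98.6 CPM in VUX mice D1, E2, B1 and G1, against 0, 0.714 and 20.8 CPM (lowest, median and highest) in the 71 other mice, and Cyp2j13 had 0.476, 0.255, 0.505 and 9.74 CPM, against 0, 0.184 and 0.679 CPM. G1 was the highest mouse for both, and without it they stood at 1.83 and 0.76 and did not pass. Reads of close paralogs can be split between these genes, so their separate levels are uncertain, as are those of the Nat8f genes.

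The window from Caap1 to Leprot (chr4:94500081-101659364, GRCm38) was drawn after the values were seen. It held 24 genes with a median of at least 2 CPM in the other mice, of which 13 (54.2%) were higher in VUX. Of all tested genes 1.18% were, but the window was drawn around genes seen to be high, so the shares are not compared. Relative to the median of the other mice, 4, 8, 7 and 18 of the 24 genes were at least 4-fold higher in VUX mice D1, E2, B1 and G1. Among the 71 other mice 43 had none, 5 had at least 5 and 2 had at least 8, KAV-D4 with 17 and LAT-E2 with 13. Of the 13 genes, 12 did not pass when some single VUX mouse was left out, and Cyp2j6 was the exception.

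A scan of the whole genome took stretches where the median of 9 neighbouring genes was at least 4-fold above the median of the other mice, over 12810 genes. It found a segment in this window in 3 of 4 VUX mice and in 4 of 71 other mice (5.63%), namely KAV-D4, LAT-E2, ROGAN-C3 and TAS-E3. Segments are named by the genes at the centre of their first and last windows, so raised genes can lie beyond them. The segment ran from Caap1 to Hook1 in E2, from Cdkn2a to Fggy in B1 and from Jun to Leprot in G1. Their window medians reached 3.14, 3.86 and 3.91 on the log2 scale. A gene so named need not be raised itself, as Fggy had 8.87 CPM in B1 against a median of 8.51 CPM in the other mice. Segments as such were not rare, since 47 of the 71 other mice (66.2%) had at least 1, with a median of 1 and up to 15, and each VUX mouse had 2. The further segment of G1 lay on chromosome 1 from Il1rl2 to Il18r1, genes of interleukin-1 family receptors, that of B1 on chromosome 3 at Adgrl2, and that of E2 on chromosome 5 from Rasl11b to Kdr. D1 had one on chromosome 4 from Klf4 to Akap2, outside the window, and one on chromosome 11 at a cluster of interferon-induced GTPase genes. In the segment of E2 on chromosome 5, the PDGF receptor gene Pdgfra had 118.3, 2487, 1763 and 1303 CPM in VUX mice D1, E2, B1 and G1, against 12.4, 481 and 2424 CPM (lowest, median and highest) in the 71 other mice, and Chic2 had 44.3, 325, 75.7 and 67.9 CPM, against 25.6, 44.04 and 191 CPM. E2 was above every other mouse for both, and Chic2 passed at 1.40 ± 0.30 but stood at 0.36 without E2. DNA copy number was not measured in these samples.

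**Figure D3:**
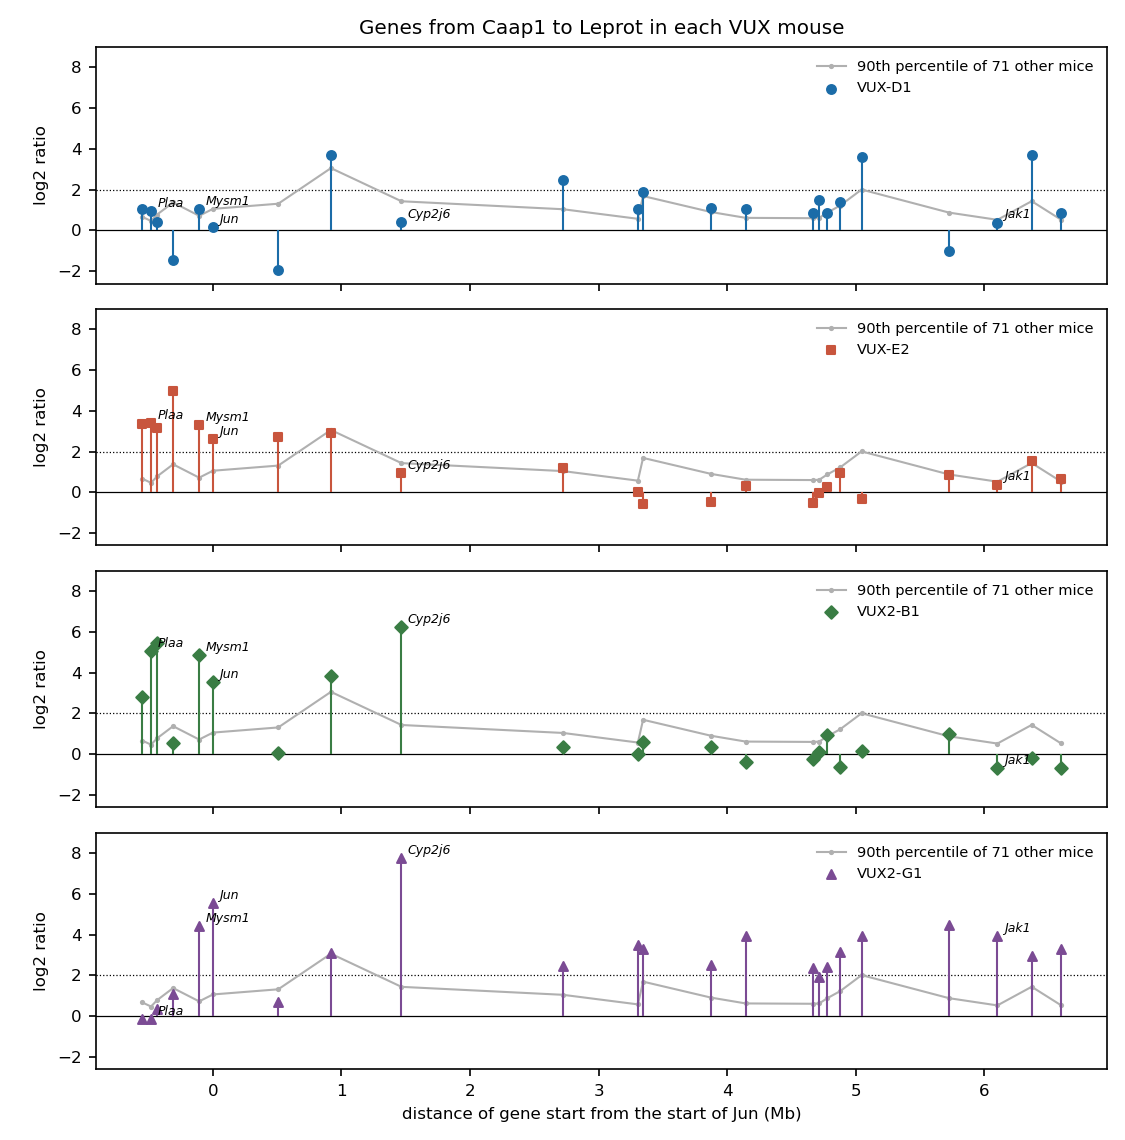
The log2 ratio of each VUX mouse (4 panels) to the median of the 71 other mice (vertical axis, CPM plus 1) for genes from Caap1 to Leprot, placed by the distance of their start from that of Jun in Mb (horizontal axis), with the 90th percentile of the other mice in grey and a dotted line at 4-fold. E2 and B1 are high at most genes left of Jun and at Jun. Right of Jun they are past the line at Hook1, and so are Fggy in E2 and Cyp2j6 in B1. G1 is high at Mysm1, at Jun and at most genes to its right, and D1 has 4 genes past the line.

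The first window of B1's segment was centred on Cdkn2a. Cdkn2a, the cell cycle inhibitor locus often lost in mesothelioma, had 0.866, 2.80, 205 and 0.215 CPM in VUX mice D1, E2, B1 and G1, against 0.147, 4.29 and 566 CPM (lowest, median and highest) in the 71 other mice. It was high in B1 and under the median of the others in the other 3 VUX mice, and the difference between groups did not pass (-0.13 ± 1.55, edgeR, adjusted p = 0.975).

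The 7 named lower genes had all 4 VUX mice below the median of the other strains. Dnajc15, a mitochondrial chaperone cofactor of the inner membrane, had 12.1, 15.5, 9.66 and 11.4 CPM in VUX mice D1, E2, B1 and G1, against 11.1, 24.3 and 60.6 CPM (lowest, median and highest) in the 71 other mice, so that B1 lay below every other mouse, and the fold change was -1.09 ± 0.26 (edgeR, adjusted p = 0.0117). Rpl34, a protein of the large ribosomal subunit, had 48.6, 86.5, 77.9 and 68.6 CPM in VUX mice D1, E2, B1 and G1, against 65.9, 173.1 and 423 CPM (lowest, median and highest) in the 71 other mice (-1.30 ± 0.32, adjusted p = 0.0142). D1 lay below every other mouse in Rpl34, and the other 3 VUX mice overlapped the lowest of the others. Rps2, of the small subunit, had 259, 597, 179 and 322 CPM in VUX mice D1, E2, B1 and G1, against 297, 962 and 2598 CPM (lowest, median and highest) in the 71 other mice, and passed by little (-1.64 ± 0.46, adjusted p = 0.0498). D1 and B1 lay below all other mice, G1 and E2 lay within their range, and 53 of the 71 other mice were above E2.

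Cdk2ap2, which binds the kinase Cdk2, had 18.7, 17.1, 16.1 and 10.6 CPM in VUX mice D1, E2, B1 and G1, against 10.7, 44.7 and 212 CPM (lowest, median and highest) in the 71 other mice (-1.70 ± 0.43, edgeR, adjusted p = 0.0202). Arhgef3, an exchange factor of RhoA, had 16.8, 19.8, 13.6 and 12.7 CPM in VUX mice D1, E2, B1 and G1, against 15.6, 41.8 and 113.3 CPM (lowest, median and highest) in the 71 other mice (-1.58 ± 0.41, adjusted p = 0.0248). In both genes all 4 VUX mice were in the lowest part of the range, with G1 below every other mouse, and for Arhgef3 B1 as well. Mthfs, an enzyme of folate metabolism, had 2.99, 3.41, 2.92 and 4.37 CPM in VUX mice D1, E2, B1 and G1, against 3.75, 7.24 and 26.1 CPM (lowest, median and highest) in the 71 other mice, so that D1, E2 and B1 lay below every other mouse (-1.21 ± 0.31, adjusted p = 0.0246). St6galnac2, a sialyltransferase, had 1.82, 2.65, 2.19 and 3.36 CPM in VUX mice D1, E2, B1 and G1, against 2.34, 8.95 and 46.7 CPM (lowest, median and highest) in the 71 other mice, and D1 and B1 lay below every other mouse (-2.08 ± 0.54, adjusted p = 0.0251). Of these 7 genes, none kept its call whichever VUX mouse was left out. Their values without one mouse were between -2.24 for St6galnac2 without G1 and -0.98 for Dnajc15 without B1, and all stayed negative.

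**Figure D4:**
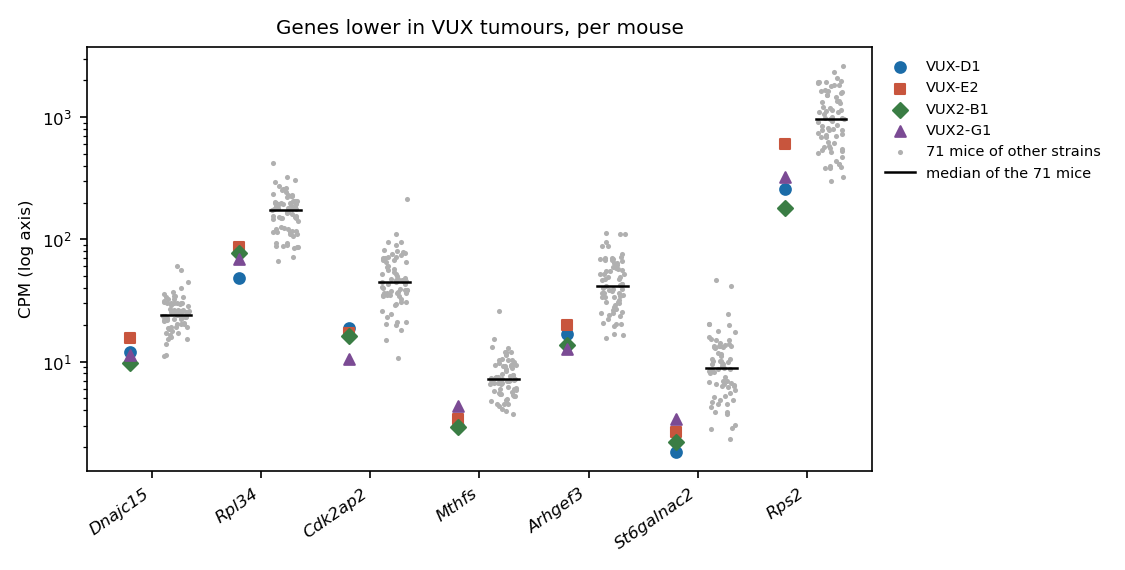
CPM (vertical log axis) of the 7 named genes lower in VUX, with the 4 VUX mice as coloured symbols and, to their right, the 71 mice of other strains as grey dots with their median as a black line. All 4 VUX mice lie under the median of the others in each gene, as with Rpl34 at 48.6 to 86.5 CPM in the VUX mice against a median of 173 CPM.

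Of the other 11 lower genes, 8 were pseudogenes and 3 coded for proteins, Ndufv2, a subunit of respiratory complex I (-0.76 ± 0.20, edgeR, adjusted p = 0.0362), Znrd1, a subunit of RNA polymerase I (-0.85 ± 0.24, adjusted p = 0.0471), and Kcnip2, a potassium channel partner under 0.1 CPM in all 4 VUX mice (-3.05 ± 0.83, adjusted p = 0.0410). Ndufv2 did not pass without E2, B1 or G1, Kcnip2 without the same 3, and Znrd1 without any one. Among the pseudogenes, Gm13841 and Gm8210 held identical values in the summary of each mouse, with 0.606, 0.967, 0 and 0 CPM in VUX mice D1, E2, B1 and G1, against 0, 19.05 and 67.2 CPM (lowest, median and highest) in the 71 other mice, so they are not separate evidence. Sequence shared with parent genes makes the level of any processed pseudogene uncertain.

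Only 2 of 19628 genes (0.0102%) had all 4 VUX mice above all 71 others, and 0 (0%) had all 4 below. Both were processed pseudogenes. Gm10651 (chromosome 7) had 2.04, 3.46, 5.45 and 6.16 CPM in VUX mice D1, E2, B1 and G1, against 0, 0 and 1.35 CPM (lowest, median and highest) in the 71 other mice, and Gm6035 (chromosome 13) had 1.21, 2.19, 2.02 and 4.30 CPM, against 0, 0.215 and 1.08 CPM. Their fold changes were 6.57 ± 0.68 and 3.10 ± 0.41 (edgeR, adjusted p of 3.85e-11 and 1.28e-07), and they passed whichever VUX mouse was left out.

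Some higher genes were raised in all 4 VUX mice, to an extent that differed between genes and mice. A rule set after the values were seen took protein-coding genes among the 232 with at least 20 CPM and over 1.5 times the median of the others in every VUX mouse, and it held for 18. How many of all 19628 tested genes met the same levels was not counted. The number 18 is therefore a description and is not read against a background. Single VUX mice ran from 1.53 times that median for Dcbld2 in B1 to 44.7 times for Pamr1 in E2. Golgb1 and Golga3, proteins of the Golgi membrane, varied least. Golgb1 had 216, 217, 245 and 223 CPM in VUX mice D1, E2, B1 and G1, against 80.3, 129.8 and 266 CPM (lowest, median and highest) in the 71 other mice (0.75 ± 0.18, edgeR, adjusted p = 0.0129). Golga3 had 144.0, 147.6, 209.9 and 170.3 CPM in VUX mice D1, E2, B1 and G1, against 51.2, 90.5 and 190.1 CPM (lowest, median and highest) in the 71 other mice (0.81 ± 0.20, adjusted p = 0.0202). Heg1, a mucin-like surface protein whose sialylated form marks human mesothelioma, had 1737, 719.9, 465 and 365 CPM in VUX mice D1, E2, B1 and G1, against 54.2, 128.1 and 938 CPM (lowest, median and highest) in the 71 other mice. All 4 were well above the median, D1 above every other mouse, and 2.02 ± 0.44 was 1.36 without D1 (adjusted p = 0.349).

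Mysm1, the gene beside Jun, was also among the 18. Serinc5, a multipass membrane protein that restricts retroviruses, had 125.8, 202, 105.6 and 323 CPM in VUX mice D1, E2, B1 and G1, against 30.5, 61.7 and 195 CPM (lowest, median and highest) in the 71 other mice (1.43 ± 0.28, edgeR, adjusted p = 9.57e-04). Tlr4, the receptor of bacterial lipopolysaccharide, had 98.2, 56.2, 48.5 and 63.4 CPM in VUX mice D1, E2, B1 and G1, against 9.29, 30.8 and 73.96 CPM (lowest, median and highest) in the 71 other mice (1.11 ± 0.27, adjusted p = 0.0156). The values lay in the upper part of the range of the others, and E2 and G1 exceeded that range for Serinc5 and D1 alone for Tlr4. Bmp6, a ligand of the BMP pathway, had 50.2, 86.5, 21.3 and 109.7 CPM in VUX mice D1, E2, B1 and G1, against 0.743, 5.99 and 82.9 CPM (lowest, median and highest) in the 71 other mice (2.43 ± 0.63, adjusted p = 0.0276), and Pappa, a protease that frees insulin-like growth factors from their binding proteins, had 144.9, 40.01, 59.4 and 185 CPM, against 0.184, 6.13 and 91.5 CPM (2.73 ± 0.72, adjusted p = 0.0306). Dpy19l3, Tmtc2, Creb5, Pamr1, Pde3a, Lgalsl, Csgalnact2, Insyn1, Dcbld2 and Mical2 completed the 18, with fold changes between 1.10 for Csgalnact2 and 2.86 for Pamr1. For each of the 18 some single VUX mouse could be left out so that the call was lost. Without G1, Serinc5 stood at 1.05 and Tlr4 at 1.14, and without B1 Golgb1 stood at 0.72 and Golga3 at 0.69. Bmp6 without E2 stood at 2.28 and Pappa without G1 at 2.35.

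Calls among the members of lists of cell types and pathways were about as frequent as among all tested genes. Over 37 lists, 620 member genes were tested, 5 were higher and 2 lower, where 1.27% of all tested genes passed in either direction, and 31 lists had no member that passed. The 2 lower ones, Rpl34 and Rps2, were of the ribosomal list, which was added after they had been seen to pass. These counts are therefore not read as a result about the lists. The higher members were Tek among 14 endothelial genes, Muc16 among 20 mesothelial genes, Tgfb2 among 18 mesenchymal genes, Zmat3 among 17 p53 targets and Gsta2 among 24 glutathione transferases. Muc16, the carrier of the CA125 antigen and a ligand of mesothelin, had 1144, 15.02, 0.0561 and 0.0716 CPM in VUX mice D1, E2, B1 and G1, against 0, 2.18 and 398 CPM (lowest, median and highest) in the 71 other mice, and its 4.26 ± 0.97 (edgeR, adjusted p = 0.00741) turned to -1.52 without D1. Tgfb2, a ligand of the TGF-beta pathway, had 76.6, 106.3, 201 and 1603 CPM in VUX mice D1, E2, B1 and G1, against 0.551, 60.7 and 759 CPM (lowest, median and highest) in the 71 other mice. G1 stood above every other mouse, and 2.56 ± 0.63 was 0.59 without it. Zmat3, an RNA-binding protein induced by p53, had 79.5, 77.3, 105.1 and 219 CPM in VUX mice D1, E2, B1 and G1, against 21.1, 56.5 and 142.5 CPM (lowest, median and highest) in the 71 other mice, all 4 above the median (1.00 ± 0.26, adjusted p = 0.0220), and did not pass without B1 (1.06) or G1 (0.54). Gsta2, a detoxifying enzyme, reached 27.7 CPM in G1 and 3.21 CPM in E2 and was at 0 in D1 and B1, against 0, 0.0360 and 13.7 CPM (lowest, median and highest) in the 71 other mice. Its fold change of 4.50 ± 0.97 was 1.73 without G1, and the glutathione transferases as a list had a median of -1.29.

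The level of mesothelial genes set D1 apart from the other VUX mice. The 20 genes summed to 7152, 1389, 1365 and 390.3 CPM in VUX mice D1, E2, B1 and G1, against 44.9, 665 and 6132 CPM (lowest, median and highest) in the 71 other mice, so D1 ranked 1st of the 75 mice and G1 55th. The mesothelial transcription factor Wt1 had 730.3, 12.8, 0.281 and 2.22 CPM in VUX mice D1, E2, B1 and G1, against 0.0991, 6.72 and 472 CPM (lowest, median and highest) in the 71 other mice, and Msln, which encodes mesothelin, had 428, 36.6, 1.12 and 0.644 CPM, against 1.04, 17.005 and 1144 CPM. D1 was above every other mouse for Wt1, while B1 and G1 lay below the median for both genes and G1 below every other mouse for Msln. Neither gene passed (2.16 ± 1.09 and 0.48 ± 1.12, edgeR, adjusted p of 0.366 and 0.853), and only Muc16 of this list did. Pkhd1l1 and Muc16 had the largest spread among the VUX mice, and Pkhd1l1 went the same way, with 1999, 34.3, 0.449 and 0 CPM in VUX mice D1, E2, B1 and G1, against 0, 5.52 and 2951 CPM (lowest, median and highest) in the 71 other mice. Dmkn, which encodes dermokine, had 137.0, 67.5, 0 and 0.215 CPM in VUX mice D1, E2, B1 and G1, against 0, 0.675 and 175 CPM (lowest, median and highest) in the 71 other mice, and St8sia2, which makes polysialic acid, had 0.0866, 0, 98.6 and 107.8 CPM, against 0, 0.303 and 341 CPM. These 2 split the mice by title prefix, Dmkn being high in D1 and E2 and St8sia2 in B1 and G1.

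In matrix genes D1 stood at the other end of the VUX mice. The 19 tested genes of matrix and fibroblasts summed to 15151, 125446, 77197 and 91679 CPM in VUX mice D1, E2, B1 and G1, against 959.7, 28473 and 153325 CPM (lowest, median and highest) in the 71 other mice. E2, B1 and G1 ranked 2nd, 9th and 5th of the 75 mice and D1 59th. The fibrillar collagen gene Col1a1 had 1651, 33427, 10069 and 10914 CPM in VUX mice D1, E2, B1 and G1, against 104.6, 4594 and 38175 CPM (lowest, median and highest) in the 71 other mice, and did not pass (1.21 ± 0.70, edgeR, adjusted p = 0.416). No gene of the list passed (edgeR, with 8 of 19 below an unadjusted p of 0.05, against 13.7% of all tested genes), and the median fold change was 1.21 beside -0.16 over all tested genes.

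Leukocyte genes were low in several VUX mice, and none passed. The 24 genes of T and cytotoxic cells summed to 59.4, 23.8, 12.6 and 23.2 CPM in VUX mice D1, E2, B1 and G1, against 5.93, 54.5 and 1935 CPM (lowest, median and highest) in the 71 other mice, with all 24 fold changes negative, a median of -2.91 and 13 genes below an unadjusted p of 0.05. The 14 genes of B and plasma cells summed to 442, 107.1, 64.2 and 236 CPM, against 13.04, 356 and 19581 CPM, with a median of -4.18 and 8 genes below an unadjusted p of 0.05, where 13.7% of all tested genes were. D1 lay near the median of the others in both lists, and E2, B1 and G1 lay below it. The fitted fold changes of these genes are ratios of means, and a few other mice held very high levels, as with the B cell antigen gene Ms4a1 at 1066 CPM in CC053-H1 against a median of 3.70 CPM. Ms4a1 had 4.24, 2.80, 0.674 and 0.286 CPM in VUX mice D1, E2, B1 and G1 (adjusted p = 0.350). MHC class I and antigen loading genes summed to 9470.02, 3927, 971 and 1165 CPM in VUX mice D1, E2, B1 and G1, against 787, 2952 and 12635 CPM (lowest, median and highest) in the 71 other mice. B1 and G1 were 74th and 73rd of the 75 mice and D1 the 7th, and 0 of 18 genes passed (edgeR, with 1 below an unadjusted p of 0.05). MHC class II genes had sums of 1864, 1149, 313 and 126.8 CPM in VUX mice D1, E2, B1 and G1, against 67.8, 1127 and 20613 CPM (lowest, median and highest) in the 71 other mice, with G1 the lowest of the VUX mice. The sum of the 20 macrophage genes, though not each gene, lay below the median of the others in all 4 VUX mice. It was 1647, 2692, 1317 and 1804 CPM, against 855, 3155 and 12902 CPM, and 0 genes passed (edgeR, with 2 below an unadjusted p of 0.05).

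Ribosomal protein genes, a list added after Rpl34 and Rps2 had been seen among the lower genes, summed to less than the median of the others in all 4 VUX mice. They summed to 13703, 23124, 20128 and 20319.9 CPM in VUX mice D1, E2, B1 and G1, against 14100.4, 29283 and 53929 CPM (lowest, median and highest) in the 71 other mice. D1 was the lowest of all 75 mice, and E2, B1 and G1 ranked 54th, 63rd and 62nd. Of 79 genes 78 had a negative fold change, with a median of -0.65, and 2 passed, while 60.9% of all tested genes were negative, with a median of -0.16. An unadjusted p under 0.05 was found for 54.4% of the ribosomal genes and 13.7% of all tested genes. Nuclear genes of oxidative phosphorylation ran lower to a smaller extent, with sums of 1809, 2115, 2616 and 2280.4 CPM in VUX mice D1, E2, B1 and G1, against 1589, 2776 and 6888 CPM (lowest, median and highest) in the 71 other mice, and 0 of 17 passed (edgeR, with 4 below an unadjusted p of 0.05). Their median fold change was -0.32 beside -0.16 over all tested genes, and B1 ranked 40th of the 75 mice.

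In edgeR, erythroid genes were lower at an unadjusted p under 0.05 in all 7 tested members, and 0 passed the adjusted threshold. Of all tested genes, 13.7% were below that unadjusted p in either direction. The erythroid genes summed to 14.03, 184, 37.8 and 8.45 CPM in VUX mice D1, E2, B1 and G1, against 18.2, 206 and 3999.7 CPM (lowest, median and highest) in the 71 other mice. G1 and D1 were the lowest and second lowest of the 75 mice, while E2 ranked 43rd. Cell cycle genes summed to 2001, 1629.9, 2788 and 1069.97 CPM in VUX mice D1, E2, B1 and G1, against 358, 2415 and 6523 CPM (lowest, median and highest) in the 71 other mice, within the range of the others, and 0 of 30 passed (edgeR, with 1 below an unadjusted p of 0.05).

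Traces of other tissues differed between the 4 libraries. D1 held skeletal muscle transcripts, with 12 genes summing to 2648, 61.8, 8.98 and 226 CPM in VUX mice D1, E2, B1 and G1, against 5.08, 60.03 and 51721 CPM (lowest, median and highest) in the 71 other mice, and the myosin gene Myh4 had 686, 10.5, 0 and 96.9 CPM in VUX mice D1, E2, B1 and G1, against 0, 9.32 and 11139 CPM (lowest, median and highest) in the 71 other mice. The library of E2 held transcripts of the male reproductive tract, with 9 genes at 0.130, 437, 0 and 0 CPM in VUX mice D1, E2, B1 and G1, against 0, 0.256 and 254254 CPM (lowest, median and highest) in the 71 other mice. This sum was higher than in E2 in 15 of the other mice. The share of 0.0394% in E2 was near that of several other libraries with low numbers, as with LAT-D2 (0.0485%), CIS-G4 (0.0494%) and ROGAN-E5 (0.0606%). A library of LOX-B4 reached 47.1%. Whether these transcripts came from the tumour of E2 or from the handling of its library was not tested. The seminal vesicle gene Svs2 had 0, 157.5, 0 and 0 CPM in VUX mice D1, E2, B1 and G1, against 0, 0 and 90688 CPM (lowest, median and highest) in the 71 other mice. Alb, the albumin gene of hepatocytes, had 284, 142.7, 0.842 and 0 CPM in VUX mice D1, E2, B1 and G1, against 0, 47.2 and 204838 CPM (lowest, median and highest) in the 71 other mice. The pseudogene Gm10925 also varied widely, at 1.34, 35.2, 0 and 649 CPM in VUX mice D1, E2, B1 and G1, against 0, 12.1 and 7370.01 CPM (lowest, median and highest) in the 71 other mice. All of these levels lay within the range of the other mice. None of the genes of these tissue lists passed between the groups, and leaving out the 14 libraries with over 1% of another tissue gave 224 higher and 18 lower genes, 200 and 15 of them among the 232 and 18.

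**Figure D5:**
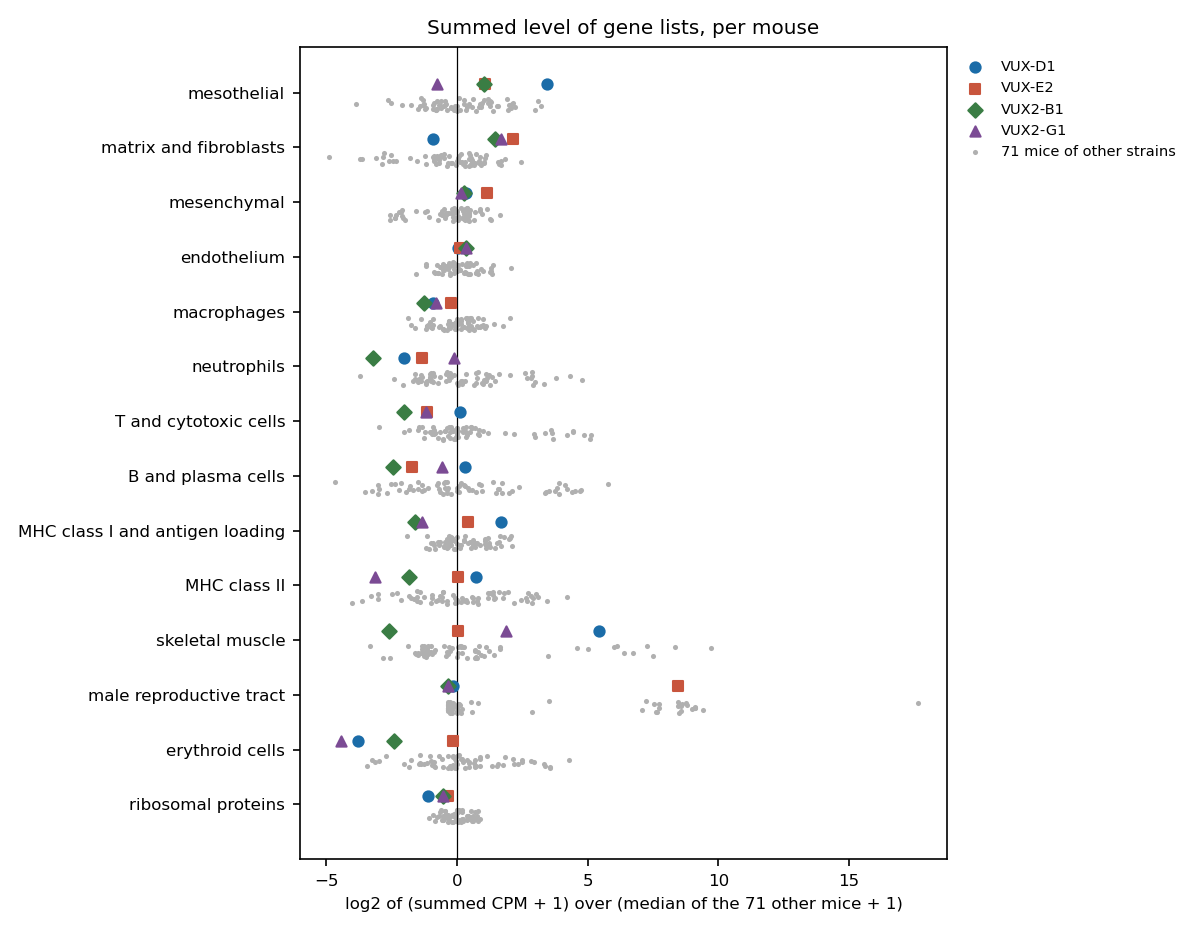
The log2 ratio of the summed CPM plus 1 of 14 gene lists (horizontal axis) in each VUX mouse (coloured symbols) and in each of the 71 other mice (grey dots) to the median of the 71. The VUX mice spread widely in mesothelial, matrix and MHC genes. D1 and G1 lie at opposite ends for mesothelial and MHC class II genes. All 4 VUX mice lie left of the median for ribosomal proteins, macrophages, neutrophils and erythroid cells.

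Over all tested genes, the VUX mice were not a close group. The mean correlation of log2 CPM between VUX mice was 0.889, the 3rd lowest of the 17 strains, and the median correlation of VUX mice with the other mice was also 0.889 (a description over 19628 genes). Within strains the mean ran from 0.857 in LOX to 0.952 in CC060. The median biological coefficient of variation over genes in the comparison was 62.9%.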

How the data were processed

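RNA of whole tumours was sequenced with a strand-specific mRNA kit, per the labels' protocols. The authors deposited estimated counts per gene, given as whole numbers, and kallisto 0.46.1 and GRCm38 are named per the submitters' processing notes. The settings and annotation were not given in the sources used here. Although the design had assumed raw counts, the same test was used on the estimated counts. Gene names and positions were taken from GENCODE vM21 for 35825 of 36118 genes.

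Counts were summed over the tumours of a mouse, so the mouse was the replicate. In R 4.3.3, edgeR 4.0.16 filtered genes with filterByExpr, computed TMM factors and fitted the quasi-likelihood model of VUX against all other mice as one group. P-values were adjusted over all 19628 genes. CPM use the TMM-scaled total, and log2 CPM use a prior count of 2. Limma 3.58.1 and DESeq2 1.42.0 served as alternatives, and the scripts were tested on simulated data. P-values measure the spread between mice within the 2 groups, and that of the other group also holds the differences between its strains.

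Genes were named by this rule. Cwc22 was always named. Of the genes that passed with a change of 1 or more on the log2 scale, a mean of at least 5 CPM in the higher group, VUX first or last of the 17 strain means and no predicted-gene or pseudogene name, the 12 of lowest p in each direction were named. Members of the lists that passed, with markers that define a list, the 8 genes of largest spread among the VUX mice and runs of at least 3 neighbouring genes that passed completed the rule. The lists covered cell types, other tissues and pathways. The members and lists were chosen with earlier results of these data known. The window on chromosome 4, the ribosomal list, the genes higher in every VUX mouse, the genes without overlap and the further genes of the segments were chosen after their values were seen. One gene of the window is not reported here.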

Additional observations from a re-analysis of the deposited data

Results flagged for a closer look

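Among 43 genes examined over the 4 VUX mice, 4 had one mouse far from the other 3 on the log2 CPM scale, where chance gives about 1 in 20 groups. Many of the 43 were named for their spread among the VUX mice or for a call carried by 1 mouse, so the count is not read against that share. Nat8f3 had 93.05 CPM and Nat8f6 26.8 CPM in VUX-E2. Svs2, a gene of the seminal vesicle, had 157.5 CPM in VUX-E2, and 14 mice of other strains had more. Cyp2j13 had 9.74 CPM in VUX2-G1.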

How the results depend on the processing

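Over all mice 232 genes were higher and 18 lower. Limma-voom gave 114 and 5, and DESeq2 gave 172 and 282, with 50 of the 232 genes, among them Fam135b, Nat8f6, Nat8f3, Wdr17, Muc16 and Jak1, left without an adjusted p. With each strain as a group of its own 774 were higher and 110 lower. With the library number set as a covariate 132 were higher and 14 lower, in the lower-numbered libraries 129 and 7, and in the higher-numbered ones 32 and 0 (edgeR, with 486 lower genes below an unadjusted p of 0.05). Leaving out one VUX mouse gave 112 to 213 higher genes, lowest without VUX2-G1, and 2 to 24 lower genes, lowest without VUX2-G1. The other alternatives (RLE factors, robust fit, no filter, survival class, doubtful tumours kept, first tumour of each mouse, no libraries over 1% of another tissue) kept both counts within 1.5 times. The cause of these shifts was not tested.

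In the lower-numbered libraries the sign turned for Cyp2j6 (-0.082), Dner (-2.599), Fam135b (-0.46), Rxfp3 (-1.93), Cyp2j9 (-0.89), Cachd1 (-0.0030) and Raver2 (-2.36), and in the higher-numbered ones for Tmem132d (-1.74) and Muc16 (-6.49). Without one VUX mouse the values ran from -0.72 to 5.12 for Fam135b, from -1.33 to 4.76 for Wdr17, from -1.52 to 4.70 for Muc16, from -0.51 to 3.73 for Raver2 and from -0.19 to 2.22 for Jak1. Of 35 named genes that passed, 19 lost their call under limma-voom, 10 with the library covariate, 24 in the lower-numbered libraries, 25 of the 32 tested in the higher-numbered ones, and 11, 9, 12 and 18 without D1, E2, B1 and G1. Rps2 lost it in 4 further settings, with adjusted p of 0.0501 (robust fit), 0.0591 (no filter), 0.0528 (first tumour) and 0.0530 (no other tissue). No paired analysis was possible because the replicate numbers only name mice in accession order.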
